A study of Mus musculus with 6 samples.

Results

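The genes described here are 37 genes of DNA replication and of entry into S phase, measured by RNA sequencing in mouse macrophages exposed to the antipsychotic drug thiothixene or to its solvent DMSO. They were chosen by function, as genes of origin licensing, the replication fork, nucleotide supply and the G1/S cyclins. Earlier results of these data were known when they were chosen. All 37 were found among the 56691 gene rows of each library, and all 37 passed the filter on low counts, which left 14856 genes to test. No gene of the 37 passed an adjusted p of 0.05 in edgeR's quasi-likelihood test, and 0% of all tested genes did. Fold changes of thiothixene over DMSO were below 1 for 33 of them (and for 54.7% of all tested genes), and the 95% interval of each included 0.

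The cells were macrophages grown in culture from the bone marrow of 3 mice, named a, b and c by the letters in the titles. On day 6 of culture, cells of each mouse received either thiothixene at 2 µM or DMSO, and RNA was taken after 24 h, which gave the libraries thiothixene a, b and c and the libraries DMSO a, b and c. The titles carry the same mouse letters in both groups, and no genetic change is named for either. The sources used here give neither the strain, sex and age of the mice nor the agent that drove differentiation.

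DNA replication is prepared in G1, when the origin recognition complex, Cdc6 and Cdt1 load the ring-shaped Mcm helicase onto DNA, and is started in S phase, when Cdc45, the GINS complex and Mcm10 turn that ring into an active helicase. Polymerases, the sliding clamp Pcna, its loader and the flap nuclease and ligase then copy the strands and join the fragments, while ribonucleotide reductase and thymidylate enzymes supply the building blocks. D-type and E-type cyclins release E2F transcription factors from the retinoblastoma protein, and E2F factors drive many of the genes named here. Macrophages grown from marrow are known to divide under the growth factor M-CSF, with cyclin D1 as one of its target genes.

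Because E2F factors act through short promoter sites, the 250 bases upstream of each RefSeq gene start (GRCm38.p6) were searched for TTTCCCGC, TTTCGCGC, TTTGCCGC and TTTGGCGC on both strands, where 2 matches may overlap. An entry existed for 30 of the 37 genes. A match was found in 9 of these 30 (30.0%), against 583 of all 27025 genes in the table (2.2%). The 9 are Orc1, Cdc6, Mcm5, Mcm6, Mcm7, Gins3, Pola1, Rfc3 and Uhrf1. Mcm4, Gins1, Gins2, Gins4, Pole, Ccnd1 and Ccne2 had no entry. The stretches around the matches are printed for the 5 genes where they lie outside every annotated exon, to show how the site sits in its surroundings, 5′ to 3′ on the gene's strand, with the matching bases in capitals.
Cdc6 (chr11:98907987-98908046, plus strand): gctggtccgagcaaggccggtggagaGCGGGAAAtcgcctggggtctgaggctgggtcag
Mcm5 (chr8:75109330-75109393, plus strand): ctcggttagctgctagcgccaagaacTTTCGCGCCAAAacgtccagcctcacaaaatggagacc
Mcm6 (chr1:128359719-128359841, minus strand): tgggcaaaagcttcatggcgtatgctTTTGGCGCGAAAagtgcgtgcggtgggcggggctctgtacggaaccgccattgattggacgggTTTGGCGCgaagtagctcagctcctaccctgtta
Pola1 (chrX:93632260-93632319, minus strand): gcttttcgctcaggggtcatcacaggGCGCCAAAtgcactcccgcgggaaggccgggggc
Uhrf1 (chr17:56304102-56304161, plus strand): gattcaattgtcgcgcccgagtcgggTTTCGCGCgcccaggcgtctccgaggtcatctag
The match in Cdc6 ends 130 bases before the RefSeq start of its window, as does that in Pola1, and the match in Uhrf1 ends 177 bases before its own. For Cdc6 and Uhrf1 other annotated transcripts start farther upstream, so these stretches lie inside the outer bounds of the gene, between exons. Mcm5 holds 2 overlapping matches, one on each strand. Mcm6 holds 3, the last ending 39 bases before the start. All 9 genes with a match had a log2 fold change below 0 (median -0.19), as did 18 of the 21 genes with a promoter entry and no match (median -0.25). A match describes the letters only.

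Across all 14856 tested genes, edgeR's quasi-likelihood test called 0% at an adjusted p of 0.05, and limma-voom also called 0 genes, while DESeq2 called 8. At an unadjusted p under 0.05 edgeR found 256 genes, 1.72% of those tested. Gene counts per library were 18548095 to 20264090 under thiothixene, and 10472349 to 22297520 under DMSO, where mouse b gave the smallest library. DMSO b and DMSO c stood far apart: their log2 CPM (CPM is a gene's counts relative to the library's gene counts, here scaled with TMM factors) correlated at 0.825 across all tested genes, against 0.981 between thiothixene b and thiothixene c. The same pairs correlated at 0.766 and 0.994 over the 37 genes, as a description. Of the macrophage markers, 9 of 10 were abundant enough to be tested, with Lyz2, Adgre1 (which encodes F4/80) and Csf1r (the M-CSF receptor) at 957 CPM or more in every library. Itgam had 0 or 1 counts in every library although it defines these cells. In bulk RNA, fewer cells in S phase and less of each transcript per cell cannot be told apart.

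Of the 37 genes, 0 were called by edgeR, 0 by DESeq2 and 0 by limma-voom, and 0 had an unadjusted p under 0.05 in edgeR. The smallest unadjusted p among them was 0.105, for Mcm7, which ranked 568 over all genes, and edgeR's adjusted p was 0.9998 for each of the 37. The log2 fold change of thiothixene over DMSO was below 0 for 33 of 37 genes (89.2%), against 54.7% of all tested genes. The 37 genes had a median of -0.19, against -0.04 for all tested genes, and ranged between -0.60 for Gins4 and 0.13 for Mcm2. Single libraries shifted this median: it was -0.29 without thiothixene a and -0.12 without DMSO b, where 24 of 37 genes were below 0 against 48.6% of all tested genes. All thiothixene libraries lay below all DMSO libraries for 3 of the 37 (2.77% of all tested genes) and above them for 0 (3.88% of all tested genes). None of these fold changes passed the test. The standard error was 0.25 to 0.50 on the log2 scale, with a median of 0.33, and the 95% interval of every gene included 0. The interval lay wholly above a log2 fold change of -1 for 20 genes and reached below it for 17. It extended above 1 for Pold1 alone among the 37. Without thiothixene a, DMSO b and DMSO c, a choice made once the values were known, edgeR's log2 fold change was -0.35 for Mcm6, -0.46 for Mcm7 and -0.56 for Lig1, and these 3 of 37 (8.11%) were past the threshold, against 1105 of all tested genes (6.99%). That fit sets thiothixene b and c against DMSO a alone, with no replicate of DMSO, so treatment and mouse cannot be told apart and the calls are no evidence of a treatment effect.

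**Figure D1:**
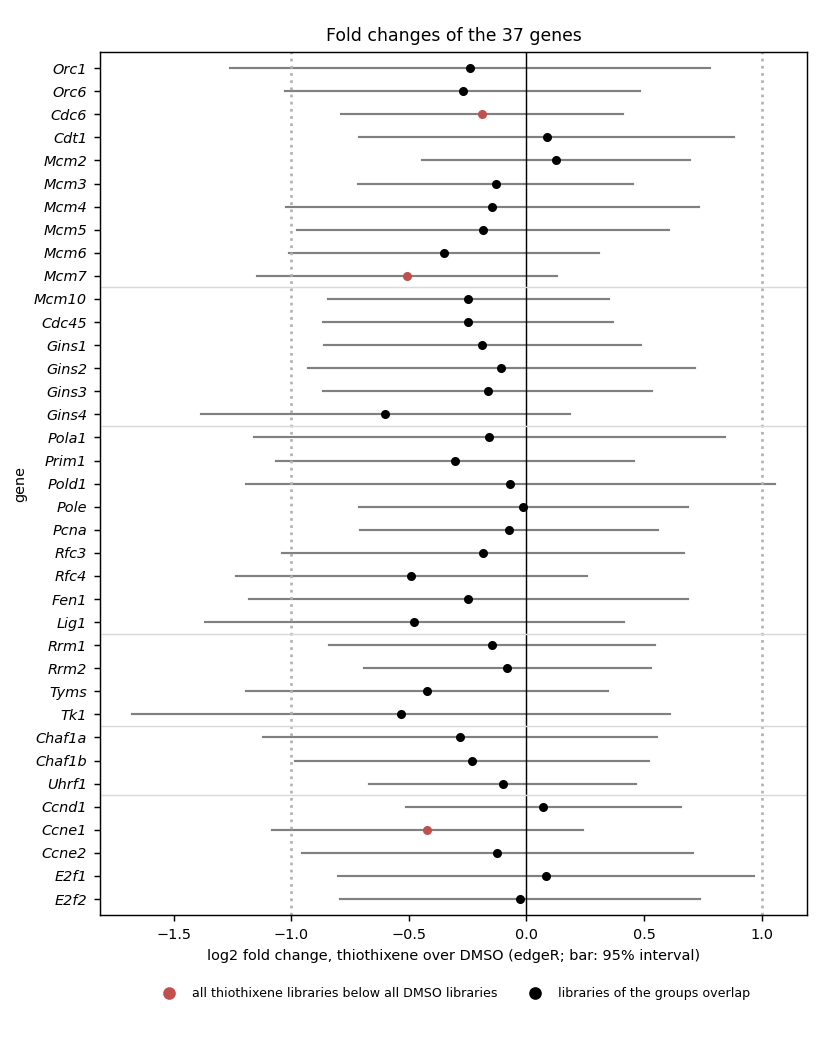
Log2 fold change of thiothixene over DMSO for each of the 37 genes (horizontal axis, log2 scale; points: edgeR estimates; bars: 95% intervals), with red points where all thiothixene libraries lay below all DMSO libraries. Every bar crosses 0, 33 of 37 points lie left of 0, and the red points are Cdc6, Mcm7 and Ccne1.

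The origin licensing genes had 8 of 10 log2 fold changes below 0, with a median of -0.19. Mcm7 is a subunit of the replicative helicase (ENSMUSG00000029730.17, GRCm38 chr5:138164583-138172422, minus strand). It measured 144, 119 and 119.8 CPM in thiothixene a, b and c, against 166, 225 and 155 CPM in DMSO a, b and c, an order kept for all values given by library. All thiothixene libraries lay below all DMSO libraries. The means were 128 ± 14.2 CPM under thiothixene and 182 ± 37.5 CPM under DMSO (SD, n = 3 each), a log2 fold change of -0.51 (SE 0.28, 95% interval -1.15 to 0.13) that did not pass edgeR's test (adjusted p 0.9998). Exons of Mcm7 overlap those of Ap4m1 and Cops6 on the opposite strand and hold Mir25 and Mir93 on its own, so reads could be shared among them if strand was not used.

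Cdc6, the loader that recruits the helicase to the origin (ENSMUSG00000017499.16, chr11:98907801-98923940, plus strand), was the other licensing gene without overlap between the groups. Its levels were 29.1, 30.8 and 31.5 CPM under thiothixene and 36.8, 32.5 and 34.8 CPM under DMSO. The margin was narrow, with the highest thiothixene library close below the lowest DMSO library. Cdc6 averaged 30.5 ± 1.23 CPM under thiothixene and 34.7 ± 2.15 CPM under DMSO (SD, n = 3 each), a log2 fold change of -0.19 (SE 0.26).

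Mcm6, the most abundant helicase subunit per kilobase of exon (66.6 CPM per kb under thiothixene, 84.9 CPM per kb under DMSO), measured 392, 266 and 274 CPM under thiothixene and 345, 388 and 456 CPM under DMSO. The groups overlapped, because thiothixene a lay above the DMSO library of the same mouse. Its log2 fold change was -0.35 (SE 0.29). Mcm3 stayed near one level, at 170.3, 167 and 169 CPM under thiothixene and 181, 209 and 164 CPM under DMSO (log2 fold change -0.13, SE 0.26). Mcm5 measured 141, 183 and 194 CPM under thiothixene and 202, 265 and 122 CPM under DMSO, where mouse c was the lowest of all libraries and mouse b the highest (log2 fold change -0.19, SE 0.34).

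The remaining helicase subunits did not separate the treatments either. Mcm2 measured 138, 139.6 and 147 CPM under thiothixene and 139.7, 126 and 123 CPM under DMSO, and had the highest fold change of the 37 genes (log2 0.13, SE 0.25). Mcm4 ranged over 114 to 171 CPM under thiothixene and over 87.9 to 222 CPM under DMSO. In DMSO cells Mcm4 was highest in mouse c and lowest in mouse b, the reverse of Mcm5, although both proteins belong to the same ring. Orc1, the largest subunit of the origin recognition complex, followed the order of Mcm4 under DMSO, at 21.8, 14.7 and 14.3 CPM under thiothixene and 20.5, 9.49 and 29.6 CPM under DMSO. Orc6, another subunit of that complex, had a log2 fold change of -0.27 (SE 0.33), and Cdt1, the licensing factor that is destroyed in S phase, one of 0.09 (SE 0.35).

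The 6 helicase activation genes all had log2 fold changes below 0, with a median of -0.22. Gins4, a subunit of the GINS complex (chr8:23226616-23237659, minus strand), had the lowest fold change of the 37. Its levels were 44.0, 33.7 and 32.0 CPM under thiothixene and 34.4, 63.4 and 68.3 CPM under DMSO. Mouse a ran against the other mice, and its DMSO library lay within the range of the thiothixene libraries. Gins4 averaged 36.5 ± 6.50 CPM under thiothixene and 55.4 ± 18.3 CPM under DMSO (SD, n = 3 each), a log2 fold change of -0.60 (SE 0.34, interval -1.38 to 0.18).

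Other subunits of GINS differed less between the treatments. Gins1 had a log2 fold change of -0.19 (SE 0.29) and Gins3 one of -0.17 (SE 0.31). Gins2 measured 55.9, 62.9 and 70.8 CPM under thiothixene, against 60.4, 101 and 42.8 CPM under DMSO, so the thiothixene libraries lay inside the DMSO range (log2 fold change -0.11, SE 0.36). Mcm10, a scaffold that helps to activate the helicase, measured 58.7, 52.1 and 47.2 CPM under thiothixene and 59.9, 69.1 and 58.6 CPM under DMSO. Its ranges touched: the highest thiothixene library exceeded the lowest DMSO library by a small margin. Cdc45, the helicase partner loaded at firing, showed a like difference (log2 fold change -0.25, SE 0.27, as for Mcm10 at -0.25, SE 0.26).

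The genes of polymerases, clamp and ligation were all below 0 (9 of 9, median -0.18). Pcna, the sliding clamp (chr2:132249162-132253314, minus strand), was the most abundant of the 37 genes per kilobase of exon, at 254 CPM per kb under thiothixene and 267 CPM per kb under DMSO. Its libraries read 627, 588 and 611 CPM under thiothixene, against 497, 782 and 642 CPM under DMSO. The thiothixene libraries lay close together inside a wider DMSO range, and the log2 fold change was -0.07 (SE 0.28, interval -0.71 to 0.56). Named pseudogenes exist for Pcna (Pcna-ps1 and Pcna-ps2) and for Tyms (Tyms-ps), so reads that fit both copies make these levels uncertain.

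Rfc4, a subunit of the clamp loader, read 20.7, 18.0 and 16.2 CPM under thiothixene and 18.3, 32.5 and 26.4 CPM under DMSO. Its DMSO a library sat among the thiothixene libraries, and the log2 fold change was -0.49 (SE 0.33, interval -1.24 to 0.26). Lig1, the ligase that seals Okazaki fragments, read 104, 123 and 127 CPM under thiothixene, against 184, 226 and 81.8 CPM under DMSO. Here mouse c was the exception, with the lowest Lig1 level of all libraries under DMSO (log2 fold change -0.48, SE 0.39). Fen1, the flap nuclease that acts before ligation, read 59.6, 82.0 and 81.0 CPM under thiothixene and 94.6, 127 and 43.0 CPM under DMSO, the same order of DMSO libraries as for Lig1.

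The catalytic subunits of the polymerases showed a wide spread between DMSO libraries. Pold1, of the lagging strand polymerase, measured 51.5, 79.3 and 79.9 CPM under thiothixene and 81.8, 112 and 27.0 CPM under DMSO. Pola1, of the polymerase that starts each strand with the primase, measured 100.4, 70.2 and 67.1 CPM under thiothixene and 84.1, 41.9 and 139 CPM under DMSO. DMSO b and DMSO c thus lay on opposite sides for these genes: mouse b was highest for Pold1 and lowest for Pola1. Log2 fold changes were -0.07 (SE 0.49) for Pold1, -0.16 (SE 0.44) for Pola1 and -0.01 (SE 0.31) for Pole, of the leading strand polymerase. Prim1, the primase subunit, had -0.30 (SE 0.33), and Rfc3 of the clamp loader -0.18 (SE 0.37).

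All 4 nucleotide supply genes were below 0 (median -0.28). Tk1, which salvages thymidine, had the widest DMSO range of these: it read 84.4, 132 and 105 CPM under thiothixene and 164, 247 and 55.7 CPM under DMSO. The thiothixene libraries all lay between DMSO c and DMSO a. Tk1 averaged 107 ± 23.9 CPM under thiothixene and 155 ± 95.7 CPM under DMSO (SD, n = 3 each), and the log2 fold change of -0.53 had an SE of 0.50.

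Tyms, which makes thymidylate from deoxyuridylate, read 43.5, 45.7 and 31.1 CPM under thiothixene and 38.1, 73.3 and 50.0 CPM under DMSO (log2 fold change -0.42, SE 0.34). Only DMSO a lay inside the thiothixene range. Rrm1, the large subunit of ribonucleotide reductase, read 338, 246 and 201 CPM under thiothixene and 287, 247 and 336 CPM under DMSO, with full overlap (log2 fold change -0.15, SE 0.30). Rrm2, its S-phase subunit, was steadier at 169, 158 and 123 CPM under thiothixene and 171, 159 and 147 CPM under DMSO (log2 fold change -0.08, SE 0.27).

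At the fork's chromatin, Uhrf1, which guides maintenance DNA methylation, kept to a narrow range in both groups. It read 186, 193 and 181 CPM under thiothixene and 202, 192 and 206 CPM under DMSO, a log2 fold change of -0.10 (SE 0.25, interval -0.67 to 0.47). Thiothixene in mouse b and DMSO in mouse b differed hardly at all for Uhrf1. The histone chaperone subunits Chaf1a (log2 fold change -0.28, SE 0.37) and Chaf1b (-0.23, SE 0.33) were highest of all libraries in DMSO b, at 167 and 79.3 CPM.

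Among the G1/S cyclins and E2F factors, 3 of 5 were below 0 (median -0.03). Ccne1, cyclin E1, which with Cdk2 starts S phase (ENSMUSG00000002068.17, chr7:38097984-38107534, minus strand), read 34.7, 36.99 and 31.1 CPM under thiothixene and 40.2, 58.1 and 39.5 CPM under DMSO. All thiothixene libraries lay below all DMSO libraries. The means were 34.3 ± 2.96 CPM under thiothixene and 45.9 ± 10.5 CPM under DMSO (SD, n = 3 each), with a log2 fold change of -0.42 (SE 0.29, interval -1.08 to 0.24). Ccne2, cyclin E2, overlapped fully between the groups, at 79.4, 49.8 and 46.4 CPM under thiothixene and 60.7, 43.2 and 87.2 CPM under DMSO.

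Ccnd1, cyclin D1, was the most abundant cyclin of the set per kilobase, at 119.7 CPM per kb under thiothixene and 114 CPM per kb under DMSO. Its libraries read 489, 571 and 631 CPM under thiothixene, against 509, 544 and 556 CPM under DMSO. Thiothixene held both the lowest and the highest Ccnd1 library, and the log2 fold change was 0.07 (SE 0.26, interval -0.51 to 0.66). The S-phase activators E2f1 (log2 fold change 0.08, SE 0.39) and E2f2 (-0.03, SE 0.33) were each lowest in DMSO c, at 33.4 and 33.0 CPM.

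The genes without overlap between the groups were thus Mcm7, Cdc6 and Ccne1, from different steps of licensing and entry. With 1 library left out, the count of 3 stayed or rose, and the share of all tested genes was higher each time. The count was 10 without thiothixene a (6.93% of all tested genes), 4 without thiothixene b (4.03%) and still 3 without thiothixene c (4.505%). It was 10 without DMSO a (8.23%), 6 without DMSO b (9.06%) and 12 without DMSO c (10.5%). Fewer libraries are easier to separate without overlap, so count and share can rise for that reason alone.

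**Figure D2:**
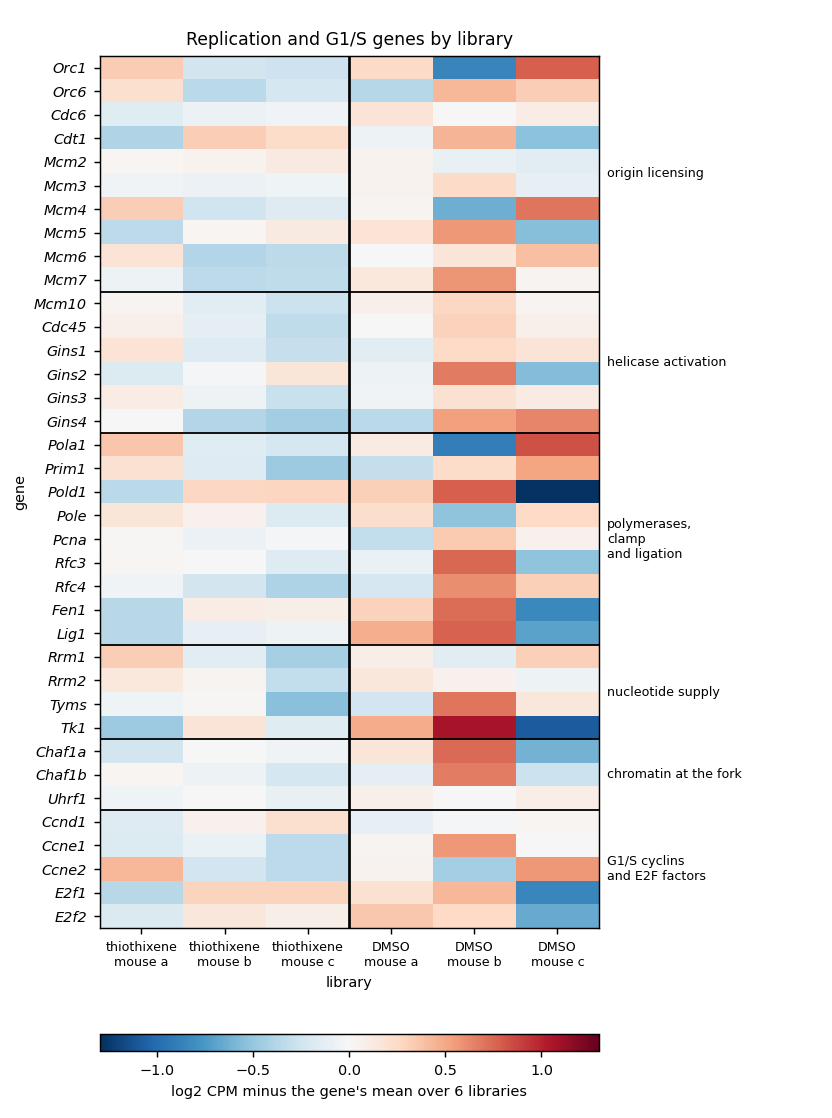
Level of each gene (rows, grouped by role) in each of the 6 libraries (columns), as log2 CPM minus the gene's mean over the 6 libraries, with red above and blue below that mean. DMSO b and DMSO c carry the strongest colours, often of opposite sign, as for Tk1, Pold1, Pola1 and Orc1.

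Between libraries of the same mouse letter, the differences varied from letter to letter, and with 1 library per treatment and mouse they have no test. Thiothixene was lower than DMSO for 20 of 37 genes in mouse a, for 29 in mouse b and for 22 in mouse c. The median difference in log2 CPM was -0.02 in mouse a, -0.41 in mouse b and -0.25 in mouse c, where the medians over all tested genes were -0.03, 0.01 and 0.05. Cdc6, Mcm7, Mcm10, Rrm2 and Ccne1, 5 of the 37 genes, were lower under thiothixene in all 3 mice, against 6.82% of all tested genes. Of the 37, 0 were higher in all 3 mice, against 1113 of the 14856 tested genes. For Rrm2 the difference was close to 0 in mice a and b. Opposite signs were large for several genes: Tk1 differed by -0.96 in mouse a, -0.90 in mouse b and 0.92 in mouse c. Pola1 showed another order, at 0.25, 0.74 and -1.05 in mice a, b and c.

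**Figure D3:**
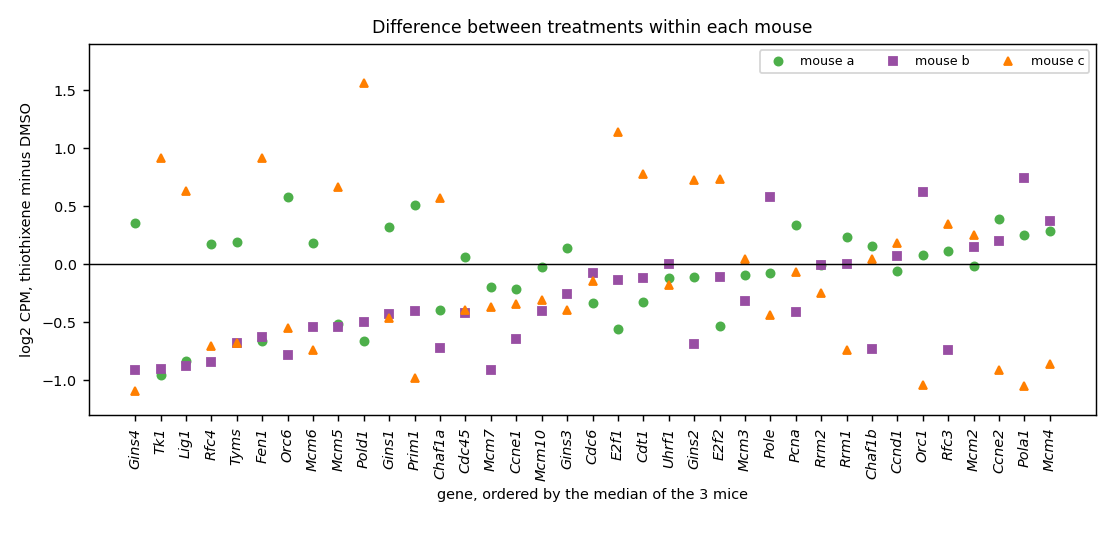
Thiothixene minus DMSO in log2 CPM within each mouse (vertical axis; green circles: mouse a, purple squares: mouse b, orange triangles: mouse c) for the 37 genes, ordered by the median of the 3 mice. Points of mouse c lie farthest above 0 for Pold1 and E2f1 and below 0 for Gins4 and Pola1, and for 5 genes all 3 points lie below 0.

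Summed over the 37 genes, the level was 4339, 4222 and 4153 TMM-scaled CPM under thiothixene in mice a, b and c, against 4455, 5278 and 4445 under DMSO. The sums averaged 4238 ± 94.1 under thiothixene and 4726 ± 478 under DMSO (SD, n = 3 each), a ratio of 0.897, and no p is given for a sum over chosen genes. The largest sum was that of DMSO b, which is also the smallest in counts. Without TMM factors the sums were 4509, 4239 and 4191 CPM under thiothixene and 4677, 4512 and 4673 CPM under DMSO, so DMSO b was then the lowest of its group. Pcna and Ccnd1 made up 26.2% of the sum. By role, all thiothixene sums lay below all DMSO sums for origin licensing alone, at 1322, 1185 and 1218 TMM-scaled CPM under thiothixene and 1352, 1523 and 1417 under DMSO. Without TMM factors these overlapped, at 1373, 1190 and 1229 CPM under thiothixene and 1420, 1302 and 1490 CPM under DMSO.

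**Figure D4:**
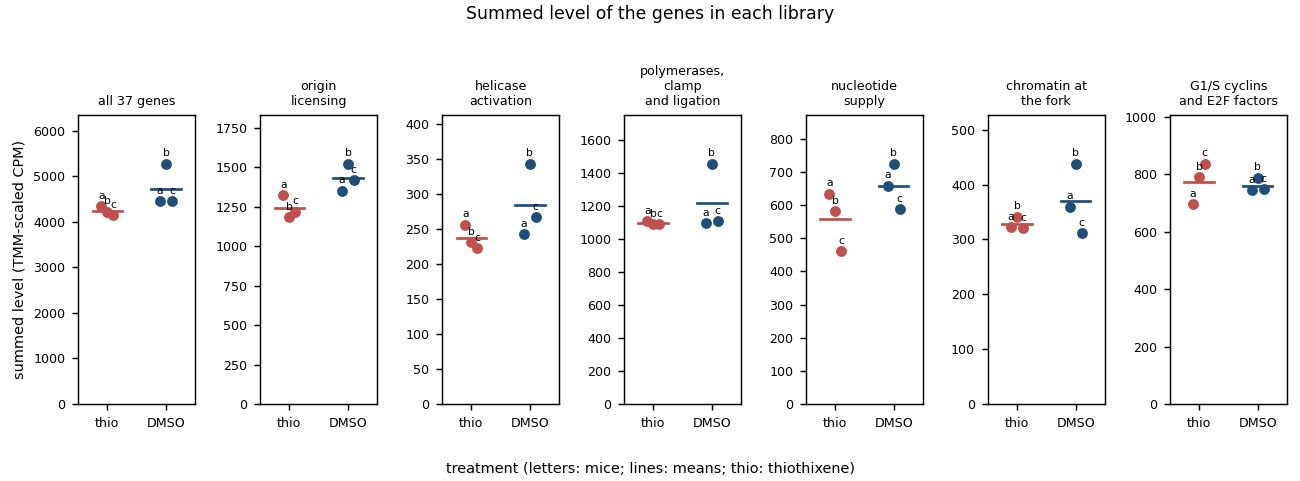
Summed level of all 37 genes and of each role group (vertical axes, TMM-scaled CPM, starting at 0; letters mark mice and lines mark group means), thiothixene being left of DMSO in each panel. DMSO b is the highest point in every panel except that of the cyclins and E2F factors, where thiothixene c is.

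On TMM-scaled levels DMSO b was the highest of the 6 for 22 of the 37 genes, and DMSO c for 9. The lowest was DMSO c for 14 genes, thiothixene c for 12 and DMSO b for 5. The difference between these DMSO libraries ran from -1.73 in log2 CPM for Pola1 to 2.14 for Tk1, with an SD of 0.92 over the 37 genes. Between thiothixene b and thiothixene c the same SD was 0.16. Base composition moved with this spread. The 25 genes that were higher in mouse b than in mouse c under DMSO had a median GC content of 52.4%, and the 12 that were lower had 47.4%. Over the 37 genes the DMSO difference, mouse b minus mouse c, correlated with GC content at r = 0.70 (rho 0.65), and over the 14565 tested genes with a GC value at 0.56 (rho 0.61). All points share the same pair of libraries, so these are descriptions. Between thiothixene libraries, mouse a minus mouse b, the correlation was -0.83 over the 37 genes and -0.51 over the 14565. For thiothixene of mouse b minus mouse c it was -0.23 over the 37 genes and -0.07 over the 14565. The log2 fold change between treatments correlated with GC content at 0.19 over the 37 genes and at 0.0001 over the 14565.

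**Figure D5:**
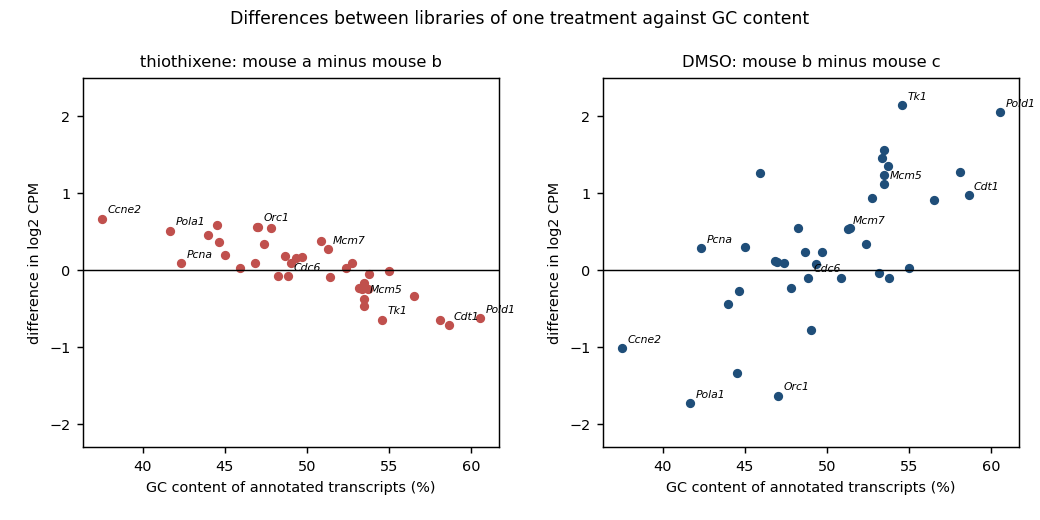
Difference in log2 CPM between 2 libraries of one treatment (vertical axes) against the GC content of each gene's annotated transcripts in percent (horizontal axes), for thiothixene of mouse a minus mouse b (left) and DMSO of mouse b minus mouse c (right); each point is one of the 37 genes. The left points slope down (r = -0.83) and the right points slope up over a wider range (r = 0.70).

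When offsets for GC content and exon length were added for each library, an analysis chosen once the values were known, the SD of the DMSO difference between mice b and c was 0.68 over the 37 genes and its correlation with GC content was -0.12. The median standard error of the 37 fold changes was then 0.22. The offsets were fitted to these same libraries, so a weaker correlation with GC content and a smaller spread follow from the fit itself. Under these offsets 36 of 37 genes were below 0 (59.2% of all tested genes), 0 were called, and edgeR's smallest adjusted p among them was 0.961. The part of base composition in the treatment difference was otherwise not tested.

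Other genes of the same processes were taken from lists drawn up by function. Of 49 further replication genes, 37 were below 0 (75.5%, median -0.15), against 54.7% of all tested genes. In edgeR 0 of the 49 were called and 0 had an unadjusted p under 0.05, against 0% and 1.72% of all tested genes. Gmnn, geminin, which blocks relicensing by binding Cdt1, read 75.8, 49.7 and 50.8 CPM under thiothixene and 53.6, 105 and 89.7 CPM under DMSO (log2 fold change -0.50, SE 0.35). Without overlap between the groups, 1 of the 49 lay higher (3.88% of all tested genes) and 0 lay lower (2.77%). The 1 was Dnmt1, the maintenance DNA methyltransferase (log2 fold change 0.31, SE 0.28). Dnmt1 read 417, 458 and 437 CPM under thiothixene and 408, 266 and 381 CPM under DMSO. Its partner Uhrf1 lay slightly the other way. Dscc1 of an alternative clamp loader had -0.45 (SE 0.34) and the histone chaperone Rbbp4 -0.17 (SE 0.26).

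Among 19 tested genes of nucleotide supply, of 21 listed, 12 were below 0 (63.2%, median -0.11), against 54.7% of all tested genes. In edgeR 0 of the 19 were called and 0 had an unadjusted p under 0.05, against 0% and 1.72% of all tested genes. Nme1 and Nme2 had at most 3 counts and were not tested. Samhd1, which breaks down deoxynucleotides and is known for limiting their supply in macrophages, read 198, 180.2 and 218 CPM under thiothixene, against 269, 215 and 301 CPM under DMSO. Samhd1 was lower under thiothixene within each mouse, but the groups overlapped, as thiothixene c exceeded DMSO b (log2 fold change -0.40, SE 0.27). Dhodh of pyrimidine synthesis had -0.53 (SE 0.40) and Paics of purine synthesis -0.11 (SE 0.27).

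Of 30 further G1/S control genes, 19 were below 0 (63.3%, median -0.11), against 54.7% of all tested genes. In edgeR 0 of the 30 were called and 0 had an unadjusted p under 0.05, against 0% and 1.72% of all tested genes. All thiothixene libraries lay below all DMSO libraries for 2 of these 30, against 2.77% of all tested genes. The 2 were Cdkn2a and E2f5 (log2 fold change -0.40), the last named after its values were seen. The Cdk inhibitor genes did not move as one group. Cdkn1a, which encodes p21, read 203, 335 and 312 CPM under thiothixene and 290.1, 415 and 173 CPM under DMSO (log2 fold change -0.05, SE 0.38), and Cdkn1b, for p27, had 0.10 (SE 0.29). Cdkn1c, for p57, was scarce, at 1.33, 3.60 and 2.96 CPM under thiothixene and 1.61, 0.894 and 0.939 CPM under DMSO (log2 fold change 1.18, SE 0.63), and mouse a ran against the other mice. Cdkn2a, for p16 and p19Arf, was scarcer still (log2 fold change -1.28, SE 0.77). It read 0.665, 0.591 and 0.493 CPM under thiothixene and 1.21, 2.46 and 0.683 CPM under DMSO. The groups did not overlap, but the margin was narrow, with 14 counts in thiothixene a and 16 in DMSO c.

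None of the named cyclin, kinase and growth regulator genes was called either. Cdk6, a kinase partner of the D cyclins, read 259, 201 and 219 CPM under thiothixene and 190.3, 129 and 277 CPM under DMSO (log2 fold change 0.19, SE 0.34). Ccnd2 had -0.26 (SE 0.53), Ccnd3 -0.36 (SE 0.53) and the growth regulator Myc 0.12 (SE 0.37). Ccnd1, at 489 to 631 CPM over all libraries, was above Ccnd2 and Ccnd3 also per kilobase, where these read 1.07 and 4.58 CPM per kb under thiothixene and 1.28 and 5.91 CPM per kb under DMSO.

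Genes of mitosis and G2/M, the next cell cycle stage, were below 0 for 23 of 24 (95.8%, median -0.19), against 54.7% of all tested genes. Of the 24, 0 were called and 0 had an unadjusted p under 0.05 in edgeR, against 0% and 1.72% of all tested genes. Without overlap between groups there were 0, against 2.77% of all tested genes on the lower side and 3.88% on the higher. Their sum was 3632, 3175 and 2166 TMM-scaled CPM under thiothixene, against 3442, 2868 and 3651 under DMSO, so thiothixene c stood lowest. The order differed from that of the replication genes, for which DMSO b stood highest. Mki67, the proliferation marker, read 681, 641 and 412 CPM under thiothixene and 642, 369.8 and 775 CPM under DMSO (log2 fold change -0.04, SE 0.36), and Top2a, the mitotic topoisomerase, had the same fold change and error. Birc5 (survivin) had -0.57 (SE 0.39) and the centromeric histone Cenpa -0.51 (SE 0.38).

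Cell type markers also differed between libraries. The 9 tested macrophage markers summed to 9905 to 11205 TMM-scaled CPM under thiothixene and 9591 to 20884 under DMSO. The sum was highest in DMSO b, where Lyz2 alone read 11651 CPM. Lyz2, Cd68, Fcgr1, Cd14, C1qa and C1qb were each highest in DMSO b, while Adgre1, Csf1r and Mertk were each highest in DMSO a. The log2 fold change was below 0 for 9 of 9 (median -0.46), against 54.7% of all tested genes. Neutrophil markers, 8 of 9 tested with Ly6g among the untested, summed to 386 to 410 under thiothixene and 430 to 850 under DMSO, 8 of 8 below 0 (median -0.55). In both lists edgeR called 0 genes. Each list had 1 gene at an unadjusted p under 0.05 in edgeR, Fcgr1 (0.035) and Retnlg (0.040), against 1.72% of all tested genes. Each also had 1 gene with all thiothixene libraries below all DMSO libraries, Csf1r and Retnlg, against 2.77% of all tested genes. Retnlg was scarce, at 0.570 to 5.80 CPM. Granulocyte precursor markers, 8 of 8 tested, summed to 19.0 to 49.1 under thiothixene and 26.8 to 68.0 under DMSO, and stromal markers, 7 of 8 tested with Lum at 0, to 57.5 to 301 under thiothixene and 101 to 176 under DMSO. A single gene was abundant enough to be tested in each of the lymphocyte (1 of 8), erythroid (1 of 8) and dendritic cell (1 of 6) lists. Ms4a1, Hbb-bs and Hbb-bt were at 0 in every library. The part of these differences in the levels of the 37 genes was not tested.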

How the data were processed

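RNA from macrophages of 3 mice, given thiothixene or DMSO, was sequenced as paired ends, per the labels' protocols. What the authors deposited for each library are raw counts per gene. The submitters' processing notes name mm10, STAR 2.7.11b, FastQC 0.11.8, Trim Galore 0.6.10 and DESeq2 1.44, with no roles. How reads were counted, and with which strand setting and annotation, is not given in the sources used here. Exons of 13 of the 37 genes overlap another gene's exons. The 5 rows that name no gene held 51.19% to 53.42% of all counts and were left out. Counts of the 37 genes were 85 to 15040 per gene and library.

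Symbols, positions, exon lengths and GC content came from the GENCODE annotation of GRCm38, matched by identifier without version (52073 of 56691). Counts were tested with edgeR 4.0.16 in R 4.3.3 by the quasi-likelihood method, robust, with TMM factors, its expression filter and treatment as the only term. P-values were adjusted over all 14856 tested genes by Benjamini-Hochberg at 0.05. The biological coefficient of variation was 46.0%. A standard error is the size of the log2 fold change over the square root of F. Per the labels, the replicates of a treatment are different mice. The procedure was also run on simulated counts that varied less between libraries than these do. That run cannot show how the procedure performs at the spread seen here.

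Per the titles, each of the 3 mouse letters has a library in both treatments, so the letters pair libraries. Deviations of same-letter libraries from their group means had correlations of -0.13 (a), 0.32 (b) and -0.30 (c), so the values themselves do not show the pairing. The highest correlation across treatments was 0.49, of thiothixene a with DMSO c, the libraries with the most reads not aligned (4.98% and 4.52%, against 1.85% to 2.31% in the others). A fit with the replicate block by letter called 0 genes, as did the fit without the block.

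The 37 genes, the other lists and the tests were chosen with earlier results of these data known. Values in every library were given by a rule: the 8 genes of highest level, the 8 of smallest p, the 6 of largest fold change, those without overlap and the highest of each role. Other members were added to show the spread between libraries. Of each pathway list the 2 genes of smallest p and the 2 of highest level were named, with 6 regulators chosen by name. Alternatives were the block, RLE scaling, other filters, DESeq2 1.42.0, limma-voom (limma 3.58.1) with and without quality weights, and leaving out libraries or mice. Leaving out 3 libraries together and the offsets for base composition were added once the values were known.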

Additional observations from a re-analysis of the deposited data

How the results depend on the processing

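Of 703 comparisons of a gene's log2 fold change with its value under another setting, 625 kept their direction and their side of the threshold, 75 turned, 50 of them on leaving out a library or a mouse, and 3 passed the threshold newly (Mcm6, Mcm7 and Lig1, without thiothixene a, DMSO b and DMSO c). The cause was not tested. Below 0 in each of the 20 fits were Cdc6, Mcm3, Mcm6, Mcm7, Mcm10, Cdc45, Gins1, Gins3, Gins4, Rfc4, Lig1, Tk1, Uhrf1 and Ccne1. The count of the 37 genes below 0, 33 in the reported fit, was 24 to 36 over the others, with 24 when DMSO b or mouse b was left out. Their median, -0.19, lay between -0.32 and -0.12. The share of all tested genes below 0, 54.7%, was 46.3% with the replicate block and 44.2% with limma-voom, where 30 and 29 of the 37 were below 0.

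The quality weights of limma-voom were 0.54 for thiothixene a, 0.21 for DMSO b and 0.23 for DMSO c. In the other libraries they were 2.28 to 6.23, so that fit rests mainly on those. Over all tested genes the count of calls was 0 with the replicate block, RLE factors and limma-voom. It was also 0 with a stricter filter (1 CPM or more in 3 libraries) and on leaving out any library or mouse. It was 1 without a filter, 8 with DESeq2, 25 with limma-voom and quality weights, 1 with offsets for GC content and length, and 1105 without thiothixene a, DMSO b and DMSO c. The offsets and the last fit were chosen after seeing the data, and the lone DMSO library of that fit is assumed to vary like the others. Of the 37 genes 3 were called there and 0 under any other setting, an adjusted p under 0.1 included. At an unadjusted p under 0.05 there were 3 with quality weights (9.70% of all tested genes), 13 in the fit of 3 libraries (19.8%), 1 with the offsets (4.12%), and 0 to 2 on leaving out a library or a mouse (0.71% to 4.26%). Genes with all thiothixene libraries below all DMSO libraries, 3 as reported, numbered 5 with RLE factors (2.87% of all tested genes), 3 to 14 on leaving out a library or a mouse (4.03% to 15.3%), and 26 in the fit of 3 libraries (37.9%), where 1 DMSO library is left to exceed.

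With the replicate block the log2 fold change turned to 0.10 for Pold1, 0.020 for Pole and 0.028 for E2f2, and the block changed no call. With limma-voom it was 0.0048 for Gins2, 0.17 for Pold1, 0.0023 for Pole and 0.046 for E2f2. Quality weights gave 0.094 for Gins2, 0.030 for Pold1, 0.19 for Pcna, 0.036 for Rfc3 and 0.0082 for Tyms. With no filter Pole was 0.012 and E2f2 0.0089. Without the 3 libraries Orc6 was 0.090, Gins2 0.15, Prim1 0.0086, Pcna 0.28, Rfc3 0.011 and Tyms 0.017. The offsets gave -0.0090 for Cdt1, -0.034 for Mcm2 and -0.036 for Ccnd1, and with the replicate block -0.021 for Mcm2 and -0.0091 for Ccnd1.

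On leaving out a library or a mouse in turn, log2 fold changes that turned ranged from -0.57 to 0.28 for Orc1, -0.19 to 0.37 for Cdt1, -0.42 to 0.33 for Mcm4, -0.52 to 0.094 for Mcm5, -0.43 to 0.29 for Gins2, -0.49 to 0.44 for Pola1, -0.69 to 0.050 for Prim1, -0.56 to 0.37 for Pold1, -0.25 to 0.21 for Pole, -0.25 to 0.12 for Pcna, -0.43 to 0.24 for Rfc3, -0.63 to 0.11 for Fen1, -0.38 to 0.14 for Rrm1, -0.17 to 0.051 for Rrm2, -0.57 to 0.089 for Chaf1a, -0.41 to 0.12 for Chaf1b, -0.0084 to 0.17 for Ccnd1, -0.44 to 0.32 for Ccne2, -0.31 to 0.37 for E2f1 and -0.31 to 0.25 for E2f2.

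The fewest counts of any of the 37 genes in a library were 85, and the 95% intervals, which hold counting error and the spread between libraries, spanned 1.13 to 2.29 on the log2 scale.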
